A study of Homo sapiens with 3 samples.

Results

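The SR proteins, the hnRNPs and the CLK kinases are the families of RNA-binding proteins, and the kinases that act on them, which set where the spliceosome cuts a pre-mRNA. Members were taken by gene symbol: SRSF followed by digits, HNRNP followed by letters or digits, and CLK1 to CLK4, without hyphenated read-through names and without pseudogenes. This gave 41 of the 58735 genes of the table, namely 12 SR protein genes, 25 hnRNP genes and 4 CLK kinase genes.

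RNA was sequenced from NCI-H660 (H660), an established human cell line of neuroendocrine prostate cancer grown in culture. Cells received vehicle (DMSO) or JG231, an inhibitor of the chaperone HSP70, at 2.5 or 5 µM for 24 h, and the study asked what the inhibitor does to gene expression in this cancer type. There was 1 library per condition, so no difference given here has a replicate check and no p-value is given. The comparisons of 2.5 µM and of 5 µM with DMSO share the DMSO library, so their values stand side by side and are not independent of each other. Levels are FPKM, fragments scaled to exon length and library size, and the depth recovered from the values was 16915318 fragments in genes for DMSO, 22856971 for 2.5 µM and 28152832 for 5 µM. The number of genes above 0 ran the other way, with 21862 in DMSO, 19352 at 2.5 µM and 17293 at 5 µM, and its cause was not tested.

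The identity of the line was checked with marker genes. CHGA, a protein of neuroendocrine secretory granules, stood at 46.0 FPKM in DMSO, 15.05 at 2.5 µM and 12.7 at 5 µM. SYP, ENO2, NCAM1 and INSM1 were also above 1 FPKM in all 3 libraries, whereas MYCN (0.693, 0.226 and 0.559) was below 1 in each. FOXA2 was at 0.979, 2.13 and 1.12. The luminal prostate genes KLK3, KLK2 and TMPRSS2 were all below 1 FPKM in every library, with TMPRSS2 the most abundant of them (0.315, 0.273 and 0.116). Among genes of other cell types, DCN, PDGFRB, PTPRC, CD3E, LYZ and PECAM1 were listed at 0 in all 3 libraries, and COL1A1 was the most abundant (0.823, 0.745 and 1.27). The sample records call the cell type a prostatic adenocarcinoma, while the markers are those of a neuroendocrine line.

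SR proteins bind exonic sequences through RNA recognition motifs and recruit spliceosomal components through a tail rich in arginine and serine. CLK kinases in the nucleus and SRPK kinases in the cytoplasm phosphorylate that tail, which controls where SR proteins reside and what they bind. hnRNPs coat nascent transcripts, and many of them repress exons or compete with SR proteins. Many of these genes limit their own level: they splice in a poison exon or keep an intron, and the resulting transcript is degraded by nonsense-mediated decay or held in the nucleus, so a gene-level FPKM counts productive and unproductive transcripts together. Gene-level values from bulk RNA also cannot tell fewer cells from less RNA per cell.

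A gene was compared when its FPKM was over 1 in either library, and it was called higher or lower when log2 of (FPKM + 0.1) differed by over 0.25. Of the 41 members, 37 passed in each comparison, and the other 4, HNRNPCL1 to HNRNPCL4, were listed at 0 in all 3 libraries. At 5 µM, 18 of the 37 were higher than in DMSO, where 36.5% of the 15765 genes tested were, and 10 were lower, where 45.1% of all genes were. At 2.5 µM, 18 were higher (36.4% of 15746 genes tested) and 9 were lower (43.4%). When a log2 change of over 1 was asked for, 4 members were higher at 5 µM (14.7% of all genes) and 2 lower (24.3%), and at 2.5 µM 5 were higher (12.9%) and 1 lower (21.7%). Members are seldom at low levels, unlike many genes of the table. Among the 7583 genes whose FPKM averaged 5 or more over the 3 libraries, 48.8% were higher and 27.4% lower at 5 µM, beside 17 (47.2%) and 10 (27.8%) of the 36 members at that level. At 2.5 µM the shares were 48% higher and 26.1% lower over these genes, beside 17 (47.2%) and 9 (25%) of the members. Taken as 1 group, the members were close to other genes of such levels in how often they were called.

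The 3 families had different medians. The median log2 change at 5 µM was 1.22 for the 4 CLK kinases, 0.49 for the 12 SR proteins and -0.03 for the 21 hnRNPs that passed, beside -0.11 over all genes tested and 0.23 over those averaging 5 FPKM or more. At 2.5 µM the medians were 1.30, 0.41 and 0.10, beside -0.08 and 0.21. Under the scaling that lowered them most, the CLK medians were 0.84 at 5 µM and 1.01 at 2.5 µM and the SR medians 0.11 and 0.12, while the hnRNP median at 5 µM lay between -0.41 and 0.08 across them, and at 2.5 µM between -0.19 and 0.17.

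**Figure D1:**
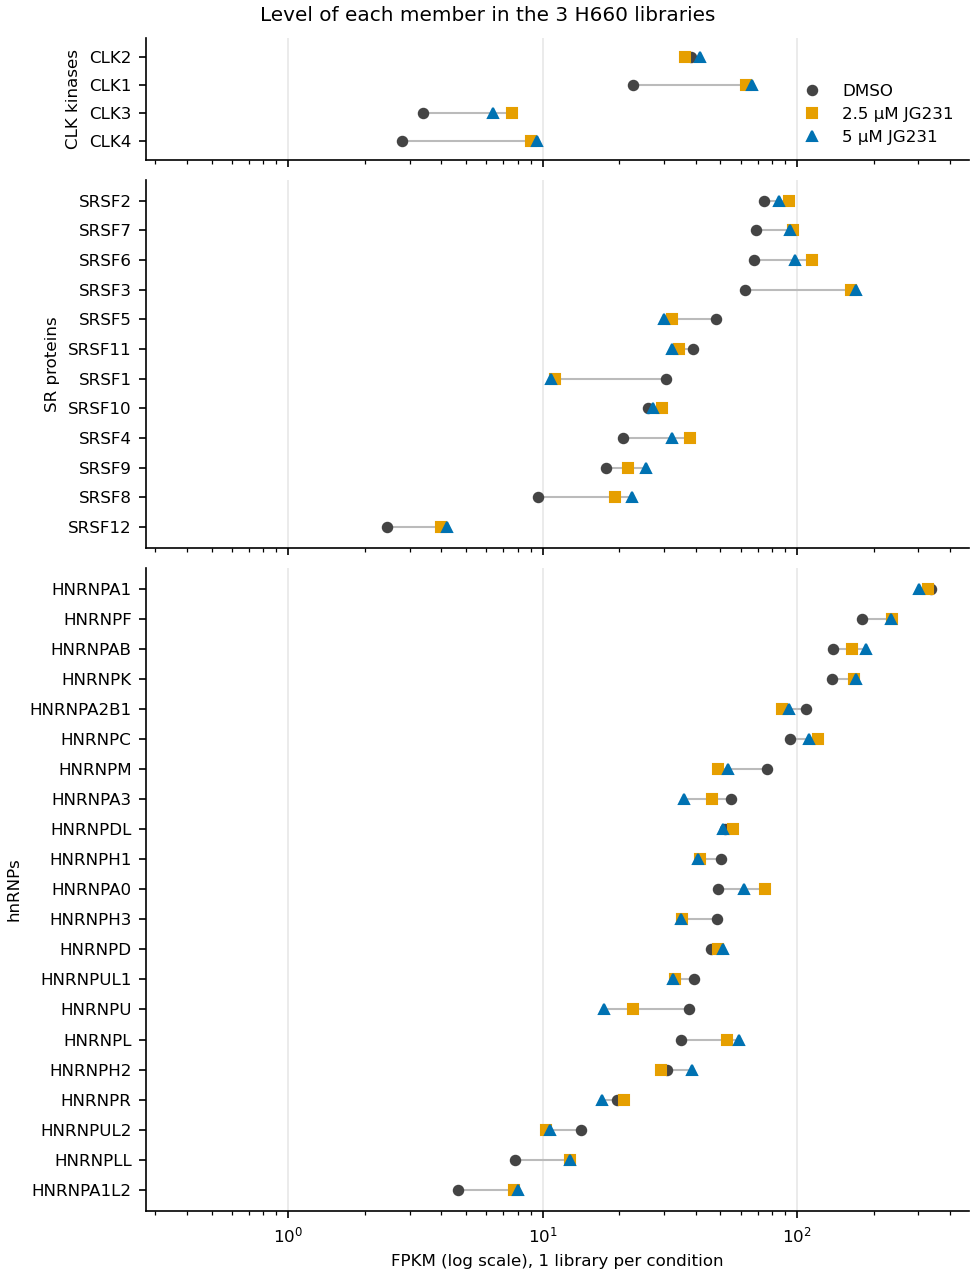
FPKM (log axis) of the 37 detected members in the DMSO, 2.5 µM and 5 µM libraries, 1 point per library, grouped by family and ordered by the DMSO level. The points of both JG231 libraries lie close together for most members, and CLK1, CLK4, SRSF3 and SRSF1 show the widest gaps to DMSO.

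Among the kinases, CLK1 (ENSG00000013441) phosphorylates SR proteins in nuclear speckles. Its level was 22.7 FPKM in DMSO, 62.8 at 2.5 µM and 66.3 at 5 µM. Both JG231 libraries were high and differed little from each other. The 5 µM level was 2.92 times that of DMSO (log2 change 1.54), with a 95% counting interval of the log2 ratio from 1.47 to 1.62, from 1887 fragments in DMSO and 8245 at 5 µM. Such intervals cover counting error in these libraries only, and not the variation between cultures.

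CLK4 (ENSG00000113240), the closest relative of CLK1, had 2.79 FPKM in DMSO, 9.04 at 2.5 µM and 9.48 at 5 µM. With the pseudocount of 0.1 it had the highest log2 change of all members at either dose, 1.66 at 2.5 µM and 1.73 at 5 µM (interval 1.60 to 1.93). With a pseudocount of 1, CLK1 (1.51) was above CLK4 (1.47) at 5 µM. Only 5.89% of all genes tested changed by more than CLK4 in the same direction at 5 µM. CLK3, a related kinase, was at 3.40, 7.60 and 6.41 FPKM. CLK3 was also higher in both JG231 libraries, with the higher level at 2.5 µM (log2 change 1.14) and not at 5 µM (0.90).

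CLK2 (ENSG00000176444) phosphorylates the same class of tails, but its level was 38.3 FPKM in DMSO, 36.2 at 2.5 µM and 41.5 at 5 µM. It was the CLK gene with the highest FPKM in DMSO and the one that passed 0.25 in neither comparison in the deposited values (-0.08 and 0.12), and the sign of its change at 5 µM turned under another scaling (range -0.26 to 0.23). Within the summed FPKM, CLK1 went from 33.8% of the 4 kinases in DMSO to 54.3% at 2.5 µM and 53.6% at 5 µM, while CLK2 went from 57.0% to 31.3% and 33.6%. The sum itself was 67.2 FPKM in DMSO, 116 at 2.5 µM and 124 at 5 µM.

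The order of levels between the CLK genes depends on the length by which fragments are divided. The length recovered from the values lay within 10% of the union of all exons in GENCODE release 44 for 32 of the 37 detected members. For CLK3 it was 20443 bases, against 1854 bases for its canonical transcript. Divided by kilobases of canonical transcript and by the same library divisor as FPKM, the fragments of the DMSO library gave 65.3 for CLK2, 63.5 for CLK1, 37.5 for CLK3 and 8.84 for CLK4. On that scale CLK1 and CLK2 were about level in DMSO. The scale counts all fragments of a gene, also those from outside its canonical transcript. The recovered and canonical lengths were 5170 and 1847 bases for CLK1 and 3670 and 2154 for CLK2, so the order of these genes stays uncertain. The value of CLK3 may hold fragments from outside its canonical transcript, since its exons span far more bases and EDC3 overlaps the gene over 14857 bases on the opposite strand. Ratios between libraries do not depend on this length, but fragments of EDC3 counted for CLK3 would enter its ratios.

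SR proteins moved in opposite directions. SRSF3 (ENSG00000112081), the smallest SR protein, also takes part in mRNA export and in the choice of polyadenylation site. Its level was 62.7 FPKM in DMSO, 163 at 2.5 µM and 171 at 5 µM, and it went from the fourth-ranked to the highest FPKM of the SR genes. The log2 change was 1.38 at 2.5 µM and 1.44 at 5 µM (interval 1.41 to 1.48, from 7180 and 29261 fragments). Its share of the summed FPKM of the SR genes was 13.4% in DMSO, 24.9% at 2.5 µM and 27.0% at 5 µM.

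SRSF1 (ENSG00000136450), the first SR protein to be described and a regulator of both constitutive and alternative splicing, went the other way. Its level was 30.5 FPKM in DMSO, 11.2 at 2.5 µM and 10.8 at 5 µM. The DMSO library was high and both JG231 libraries were low by a similar amount. The log2 change was -1.44 at 2.5 µM and -1.48 at 5 µM (interval -1.58 to -1.41), the lowest of all members at both doses. Its share of the summed SR FPKM went from 6.53% in DMSO to 1.70% and 1.71%. As for the CLK genes, shares within the SR family depend on the length by which fragments are divided. Per kilobase of canonical transcript, the DMSO library gave 38.1 for SRSF1, 106 for SRSF3 and 172 for SRSF5. The value of SRSF5 may hold fragments from outside its canonical transcript, as its recovered length was 5357 bases against 1496. SRSF5, known from insulin signalling and liver regeneration, was lower as well, at 47.9, 32.3 and 29.9 FPKM (log2 change -0.57 and -0.68). SRSF11, a partner of the splicing factor U2AF, was at 38.8, 34.4 and 32.3 FPKM and passed the threshold at 5 µM only (-0.18 and -0.27).

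SRSF8 and SRSF12, the SR genes with the lowest levels in DMSO, were higher in both JG231 libraries. SRSF8, a gene that arose as a retrotransposed copy of SRSF2, was at 9.58, 19.3 and 22.5 FPKM (log2 change 1.0 and 1.23). SRSF2, which binds exonic enhancers and is mutated in myeloid cancers, was at 74.2, 93.2 and 84.8 FPKM (0.33 and 0.19). The change of SRSF2 was smaller than that of SRSF8, and its sign at 5 µM turned under another scaling (range -0.19 to 0.30). Since fragments of the SRSF2 and SRSF8 coding sequences can be alike, the split between these genes is uncertain. SRSF12, a rarer member that can oppose other SR proteins, was at 2.45, 3.99 and 4.20 FPKM, from 179, 370 and 460 fragments.

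A further 4 SR genes were higher at both doses in the deposited values, and SRSF4 was the only one of them to keep both calls under every alternative. SRSF6 was at 67.5, 114 and 98.0 FPKM and SRSF4, its close relative with a long serine-rich tail, at 20.6, 37.8 and 32.3. For both of these genes the 2.5 µM library was the highest. SRSF7, a zinc-knuckle SR protein and an export adaptor like SRSF3, was at 68.7, 96.2 and 93.6 FPKM. SRSF9 was at 17.7, 21.7 and 25.6 FPKM, with the highest level at 5 µM. The lowest log2 change among the alternatives was 0.16 for SRSF6 at 5 µM, 0.20 and 0.07 for SRSF7 at 2.5 and 5 µM, and -0.05 and 0.03 for SRSF9. SRSF10, which represses splicing when dephosphorylated after heat shock, was within the threshold in the deposited values, at 26.0, 29.4 and 27.1 FPKM. The change of SRSF10 ran from -0.32 to 0.51 at 5 µM and from -0.12 to 0.43 at 2.5 µM across the alternatives. The summed FPKM of the 12 SR genes was 467 in DMSO, 657 at 2.5 µM and 632 at 5 µM, so that the 5 µM sum was 1.35 times that of DMSO.

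**Figure D2:**
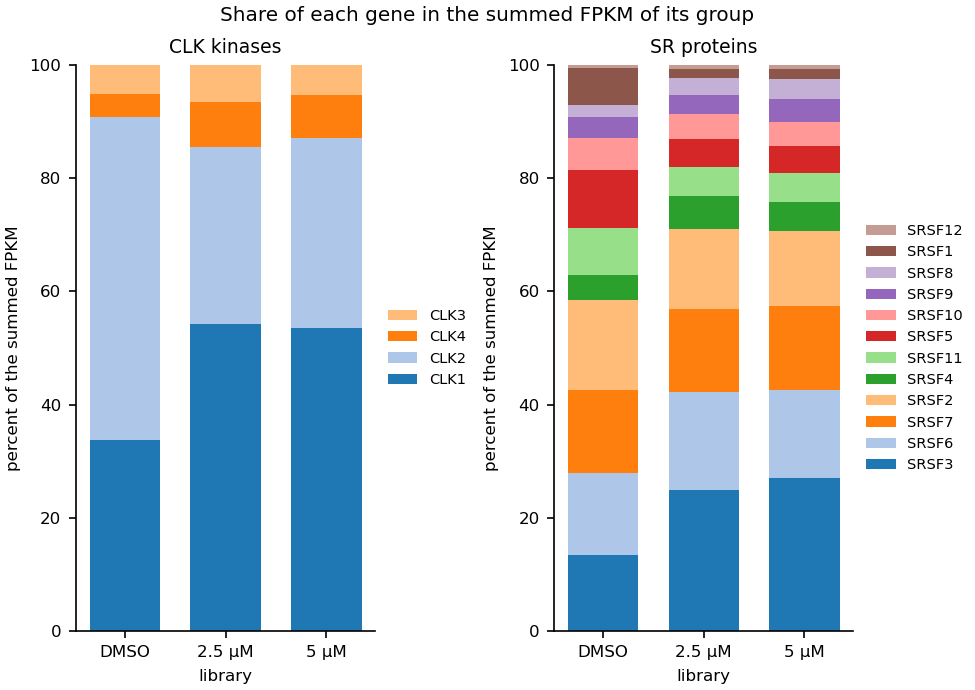
Percent of the summed FPKM that each gene makes up in its family, for the CLK kinases and the SR proteins, in the DMSO, 2.5 µM and 5 µM libraries. CLK1 and SRSF3 take larger shares in both JG231 libraries than in DMSO, and CLK2, SRSF1 and SRSF5 take smaller ones.

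The promoters of the 4 members with the largest absolute log2 change at 5 µM (CLK4, CLK1, SRSF1 and SRSF3) are shown because they are the genes that moved most, 3 up and 1 down. Each sequence holds the 250 bases before the transcription start in RefSeq (GRCh38.p14), 5′ to 3′ on the strand of the gene. CLK4 is on the minus strand (chr5:178627051-178627300), CLK1 on the minus strand (chr2:200864659-200864908), SRSF1 on the minus strand (chr17:58007247-58007496) and SRSF3 on the plus strand (chr6:36594112-36594361). Capitals mark matches, on either strand, to any of these motifs: the E-box CACGTG bound by MYC family proteins and other factors, the CCAAT box CCAAT, the cyclic AMP response element TGACGTCA, the C/EBP-ATF element TGATGNAA and the heat shock element GAANNTTC.
CLK4: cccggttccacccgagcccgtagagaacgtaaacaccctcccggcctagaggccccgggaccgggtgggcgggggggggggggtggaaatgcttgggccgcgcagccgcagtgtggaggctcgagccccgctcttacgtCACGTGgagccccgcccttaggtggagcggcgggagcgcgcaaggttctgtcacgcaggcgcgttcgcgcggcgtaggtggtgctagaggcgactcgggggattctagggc
CLK1: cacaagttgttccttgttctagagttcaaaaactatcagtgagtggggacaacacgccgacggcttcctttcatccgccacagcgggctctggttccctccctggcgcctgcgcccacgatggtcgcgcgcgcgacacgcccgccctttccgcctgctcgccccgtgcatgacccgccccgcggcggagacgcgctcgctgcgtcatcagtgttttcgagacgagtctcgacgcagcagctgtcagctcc
SRSF1: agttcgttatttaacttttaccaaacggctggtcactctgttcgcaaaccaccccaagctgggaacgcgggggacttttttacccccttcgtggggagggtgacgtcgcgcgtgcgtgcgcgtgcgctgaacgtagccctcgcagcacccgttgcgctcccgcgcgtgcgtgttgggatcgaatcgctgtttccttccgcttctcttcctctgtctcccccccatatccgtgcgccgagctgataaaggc
SRSF3: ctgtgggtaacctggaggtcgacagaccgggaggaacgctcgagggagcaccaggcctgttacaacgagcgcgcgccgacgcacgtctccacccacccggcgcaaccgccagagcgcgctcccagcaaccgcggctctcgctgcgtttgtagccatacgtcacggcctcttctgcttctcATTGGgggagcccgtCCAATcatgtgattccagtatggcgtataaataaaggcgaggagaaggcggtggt
CLK4 holds 1 E-box, SRSF3 holds 2 CCAAT boxes, and the windows of CLK1 and SRSF1 hold none of the 5 motifs.

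RefSeq promoters were matched for 38 of the 41 members, and those of HNRNPA1, HNRNPCL3 and SRSF2 were not matched. An E-box was in 8 of the 38 (21.1%, beside 6.34% of 35116 promoters of the same length), in CLK2, CLK4, HNRNPA3, HNRNPD, HNRNPDL, HNRNPH2, HNRNPH3 and HNRNPM. A CCAAT box was in 18 (47.4%, beside 32% of all promoters). A heat shock element was in HNRNPA2B1, HNRNPC and SRSF8 (7.89%, beside 5.78%), and neither of the remaining motifs was in any member (1.65% and 3.14% of all promoters). The promoters of the members had a median GC content of 64.6%, beside 58% for all promoters, and a match to letters is a description of the sequence only.

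In the deposited values 8 of 21 hnRNP genes were higher at 5 µM (38.1%) and 7 lower (33.3%), and at 2.5 µM 7 were higher and 7 lower (33.3% each). All 21 averaged over 5 FPKM, and of genes averaging 5 or more 48.8% were higher and 27.4% lower at 5 µM, and 48% and 26.1% at 2.5 µM. With a common FPKM sum without mitochondrial and small RNA genes, 3 hnRNP genes were higher and 11 lower at 5 µM, beside 3708 and 9706 of 16144 genes, and after centring on the median gene 10 were higher and 5 lower, beside 6404 and 6550 of 15765. Their summed FPKM was 1562 in DMSO, 1645 at 2.5 µM and 1622 at 5 µM, a ratio of 1.04 at 5 µM. HNRNPU (ENSG00000153187), a scaffold protein that binds both chromatin and RNA and is also called SAF-A, had the lowest log2 change of the hnRNP genes at both doses. Its level was 37.5 FPKM in DMSO, 22.7 at 2.5 µM and 17.4 at 5 µM, so the order of the libraries followed the dose. The log2 change was -0.72 at 2.5 µM and -1.10 at 5 µM (interval -1.15 to -1.07), the only hnRNP change beyond 1 in either direction. Its relatives HNRNPUL1 (39.4, 33.1 and 32.5 FPKM) and HNRNPUL2 (14.1, 10.3 and 10.7 FPKM), which take part in the response to DNA breaks, were lower at both doses by less.

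The A/B proteins bind UAG-like motifs and repress exons. HNRNPA1, the best known of them and the hnRNP with the highest FPKM, was at 337 FPKM in DMSO, 329 at 2.5 µM and 301 at 5 µM, within the threshold at both doses in the deposited values and down to -0.33 at 2.5 µM and -0.55 at 5 µM under another scaling. HNRNPA2B1, which shares its targets in part, was at 109, 87.6 and 92.6 FPKM and passed at 2.5 µM only (-0.31 and -0.23). HNRNPA3 was at 55.2, 46.5 and 36.1 FPKM. HNRNPA3 fell with each dose, and passed the threshold at 5 µM (-0.61) but lay just inside it at 2.5 µM (-0.25). HNRNPA0, an intronless gene whose protein binds AU-rich elements, was at 49.0, 74.6 and 61.8 FPKM, highest at 2.5 µM (0.61 and 0.34), and the sign of its 5 µM change turned under another scaling (-0.04). HNRNPAB, a transcription and mRNA transport factor, was at 139, 164 and 187 FPKM and passed at 5 µM only (0.24 and 0.43).

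HNRNPL and its paralog HNRNPLL bind CA-rich sequences, and HNRNPLL is known for the exon switch of CD45 in lymphocytes. HNRNPL (ENSG00000104824) was at 35.1 FPKM in DMSO, 53.1 at 2.5 µM and 59.1 at 5 µM. HNRNPLL was at 7.80, 12.8 and 12.8 FPKM. Both genes were higher in the JG231 libraries by similar factors, with log2 changes at 5 µM of 0.75 for HNRNPL and 0.71 for HNRNPLL. HNRNPM, which promotes or represses exons at GU-rich sites, was lower, at 76.2, 49.1 and 53.4 FPKM (-0.63 and -0.51).

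The H/F proteins bind runs of G. HNRNPF was at 181, 236 and 234 FPKM, and HNRNPH1, its relative, at 50.2, 41.7 and 40.9. HNRNPF was therefore higher at both doses (0.39 and 0.37) and HNRNPH1 lower at both (-0.27 and -0.30), although the change of HNRNPF at 5 µM was -0.01 under the scaling that lowered it most. HNRNPH3 was lower too, at 48.4, 35.2 and 34.9 FPKM. HNRNPH2, near-identical to HNRNPH1 in its coding sequence, was at 30.9, 29.3 and 38.6 FPKM with a log2 difference between the doses of 0.40, or 0.22 with a common FPKM sum. It was called higher at 5 µM only (0.32), and that change was -0.06 under another scaling. How fragments were divided between HNRNPH1 and HNRNPH2 is uncertain.

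Of the others, HNRNPK, a poly-C binding protein, was at 137, 167 and 171 FPKM, and HNRNPC, which binds runs of U and keeps Alu-derived exons out, at 93.6, 121 and 111. HNRNPK was higher at both doses (0.28 and 0.32), with changes of -0.01 and -0.06 under another scaling, and HNRNPC passed at 2.5 µM (0.37) and lay just inside the threshold at 5 µM (0.25). HNRNPD, also called AUF1, a factor of AU-rich mRNA decay, its paralog HNRNPDL, and HNRNPR were within the threshold at both doses in the deposited values. HNRNPD was at 45.9, 49.1 and 51.0 FPKM, HNRNPDL at 52.3, 55.9 and 51.2, and HNRNPR at 19.5, 20.9 and 17.2. The changes of these 3 genes turned sign under an alternative in at least 1 comparison, and at 5 µM they ran from -0.23 to 0.26 for HNRNPD, from -0.41 to 0.14 for HNRNPDL and from -0.56 to 0.28 for HNRNPR.

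Copies of hnRNP genes add uncertainty. The rule left out 129 pseudogene rows, of which 29 were above 0 in a library. The 75 pseudogenes named after HNRNPA1 summed to 29.9 FPKM in DMSO, 22.2 at 2.5 µM and 18.2 at 5 µM, and HNRNPCP2, a copy of HNRNPC, was at 12.4, 22.1 and 22.0. HNRNPUP1, a copy of HNRNPU, was at 0, 0.147 and 3.00 FPKM, opposite in order to its parent. HNRNPA1L2, an intronless HNRNPA1 copy counted among the members, was at 4.67, 7.73 and 8.0 FPKM, from 103, 216 and 264 fragments. With the pseudocount of 0.1 it was the hnRNP gene with the highest log2 change at 5 µM (0.76, interval 0.45 to 1.11). With a pseudocount of 1, HNRNPL (0.73) was above HNRNPA1L2 (0.67). With the FPKM of pseudogenes added to the FPKM of their parents, the log2 change at 5 µM would be -0.20 for HNRNPA1, 0.33 for HNRNPC and -0.87 for HNRNPU. FPKM is scaled to the length of each gene, so such a sum gives fragments of a shorter copy more weight than those of its parent. It is therefore not the change that would follow from counting these fragments for the parent.

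**Figure D3:**
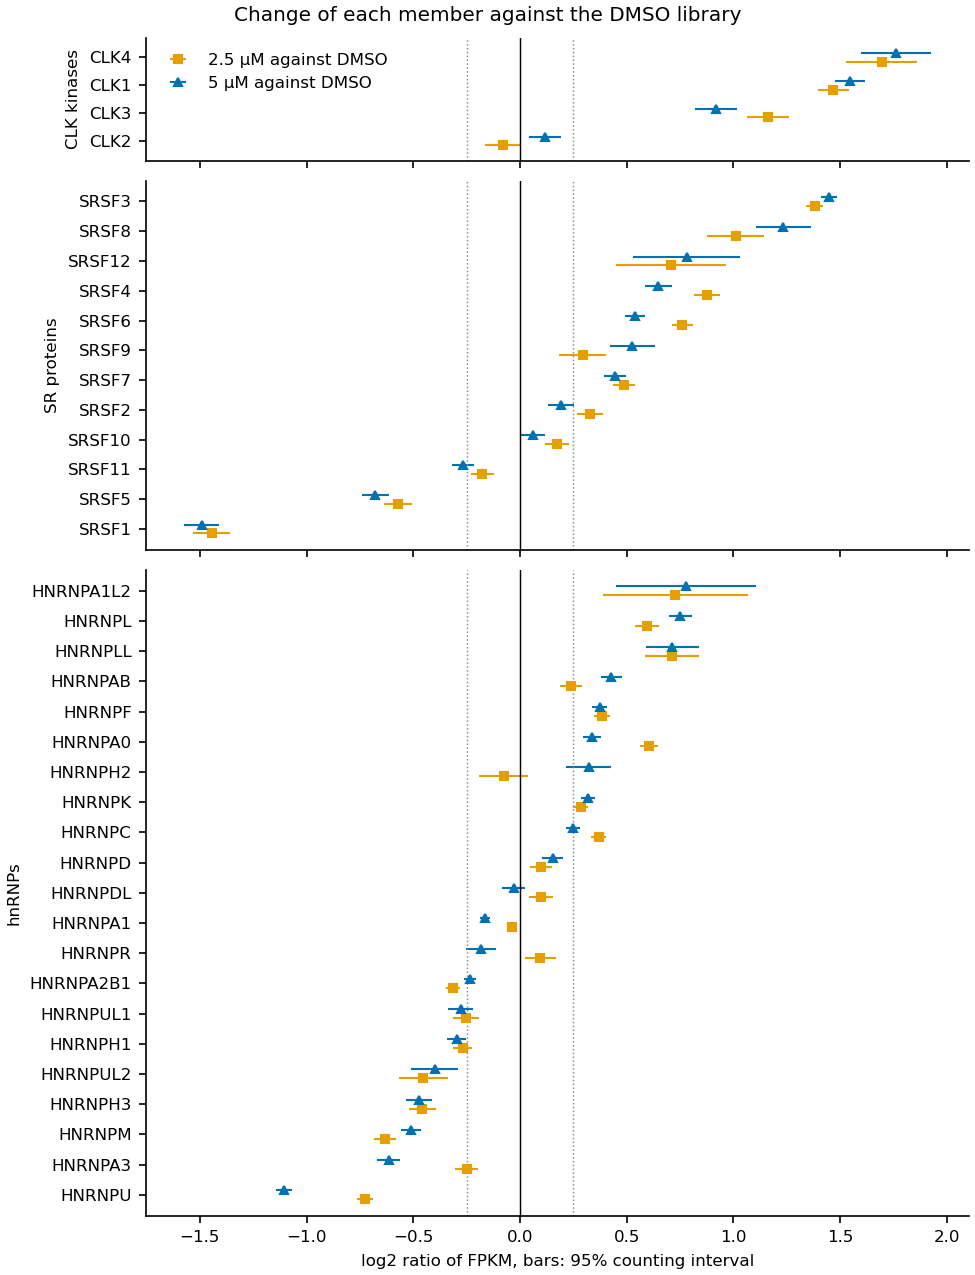
Log2 ratio of FPKM against the DMSO library at 2.5 µM and 5 µM for the 37 detected members, with 95% counting intervals as bars and dotted lines at -0.25 and 0.25. CLK4, CLK1 and SRSF3 lie farthest to the right and SRSF1 and HNRNPU farthest to the left at 5 µM.

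The doses were also compared directly, which does not involve the DMSO library. Between 5 and 2.5 µM, 1 member was called higher (26.8% of 14197 genes tested) and 4 lower (30.1%), and 32 of the 37 stayed within 0.25. Among the 7583 genes averaging 5 FPKM or more, 1609 were higher and 1546 lower, beside 1 and 4 of the 36 members at that level. The gene called higher in the deposited values was HNRNPH2. Those called lower were HNRNPU (-0.38), HNRNPA3 (-0.37), HNRNPR (-0.28) and HNRNPA0 (-0.27). All 4 lower calls were lost after subtraction of the trend with transcript length described below. That setting gave 2 members higher and 2 lower, beside 2516 and 2632 of 11270 genes, with 1 hnRNP gene higher and 0 lower. With a common FPKM sum no member was called higher and 14 were lower, beside 2404 and 6422 of 14208 genes, with HNRNPU lowest (-0.56) and CLK3 (-0.42), SRSF4 (-0.41) and SRSF6 (-0.40) among them. The median absolute difference between the doses was 0.11 over the members and 0.30 over all genes tested. The median signed difference was -0.02 for both the members and all genes.

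**Figure D4:**
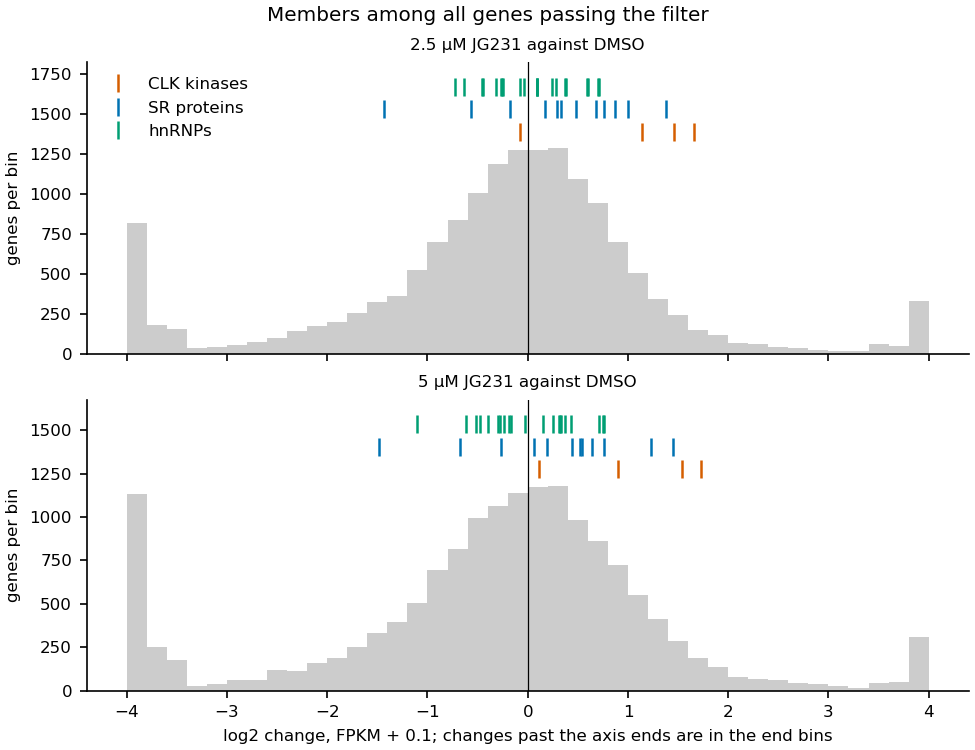
Number of genes per bin of log2 change (0.2 wide) among all genes passing the filter, for 2.5 µM and 5 µM against DMSO, with each member as a tick coloured by family. The CLK ticks lie to the right except CLK2, the SR ticks spread from SRSF1 on the left to SRSF3 on the right, and the hnRNP ticks surround 0.

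Annotated transcripts were counted for each family. In GENCODE release 44, all 12 SR genes carry at least 1 transcript annotated as a target of nonsense-mediated decay, as do 14 of 21 detected hnRNP genes (66.7%) and 3 of 4 CLK genes, beside 46.8% of 11836 protein-coding genes passing the filter. CLK2 is the CLK gene without one, and without an annotated retained intron. A retained-intron transcript is annotated for 10 SR genes, 15 hnRNP genes and 3 CLK genes, beside 59.6% of those protein-coding genes. Members also have more annotated transcripts, with a median of 10 for the SR genes, 15 for the hnRNP genes and 13.5 for the CLK genes, beside 8 for those protein-coding genes. The FPKM values hold 1 number per gene, so the share of such transcripts in each library was not measured.

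Some members are neighbours on the genome. HNRNPD and HNRNPDL lie 48.1 kb apart on chromosome 4, and neither passed the threshold in the deposited values. HNRNPLL and SRSF7 lie 140.0 kb apart on chromosome 2 and were higher in both JG231 libraries. CLK4 lies 391.5 kb from HNRNPAB and 983.6 kb from HNRNPH1 on chromosome 5, with log2 changes at 5 µM of 1.73, 0.43 and -0.30. Overlaps with other genes make some values uncertain. The libraries were stranded, but whether counting used the strand is not given in the sources used here. A gene over 1 FPKM overlaps 16 of the members, on the opposite strand for 12 of them and on the same strand for 5. Examples on the opposite strand are MFSD11 at SRSF2 (2.97, 3.34 and 4.16 FPKM), DYNLL1 at SRSF9 (56.7, 43.7 and 61.4 FPKM), EDC3 at CLK3 (7.43, 11.3 and 10.6 FPKM) and NFE2L2 at HNRNPA3 (11.8, 28.5 and 29.0 FPKM). Overlaps on the same strand are not resolved by strand. They include NRAV at SRSF9 (9.87, 3.02 and 2.21 FPKM) and long noncoding RNA genes at HNRNPA1 (over 6896 bases) and HNRNPA1L2 (over 1343 bases).

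Changes at 5 µM also went with transcript length across the table. The median log2 change of protein-coding genes was 0.56 among the 1184 genes with the shortest canonical transcripts and -0.56 among the 1184 with the longest, and at 2.5 µM 0.36 and -0.30. The median canonical length was 2004 bases for the CLK genes, 3774 for the SR genes and 3165 for the detected hnRNP genes, beside 3276.5 for all these protein-coding genes. After a smooth trend with length was subtracted, the medians at 5 µM were 0.90 for the CLK genes, 0.33 for the SR genes and 0.10 for the hnRNPs. SRSF3 (4228 bases) and SRSF8 (4307 bases) were far above genes of their length, and SRSF5 (1496 bases) was below them. HNRNPU (6867 bases) and SRSF1 (5343 bases) are long, and lay below the median of long genes.

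**Figure D5:**
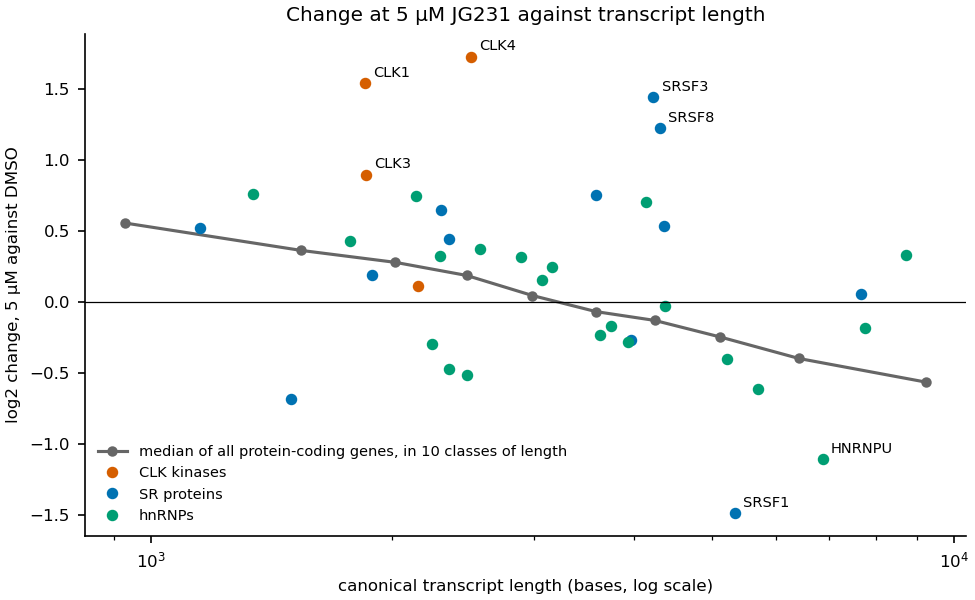
Log2 change at 5 µM against DMSO plotted against canonical transcript length (log axis) for the 37 detected members, with the median of all protein-coding genes in each of 10 classes of length as a line from 0.56 to -0.56. CLK1, CLK4, SRSF3 and SRSF8 lie above the line, and SRSF1 and HNRNPU below it.

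The direction of small changes depends on how the libraries are scaled. Over all genes tested, setting the libraries to a common FPKM sum moved the median log2 change at 5 µM by -0.14, and leaving mitochondrial and small RNA genes out of that sum moved it by -0.42 (by -0.32 at 2.5 µM). Mitochondrial genes held 12.5% of the fragments in DMSO, 7.90% at 2.5 µM and 10.2% at 5 µM. Measured against the median gene in the same setting, the CLK median at 5 µM was 1.33 as deposited and 1.34 and 1.37 under these scalings, the SR median 0.60, 0.60 and 0.64, and the hnRNP median 0.08, 0.09 and 0.12. A scaling moves all genes nearly alike, so by construction these differences change little. The median gene is lower over all genes tested (-0.11) than over genes averaging 5 FPKM or more (0.23), so these differences depend on which genes are taken. As deposited, the CLK median (1.22) and the SR median (0.49) lay above 0.23, the SR median by less than over all genes tested. The hnRNP median (-0.03) lay below it. Under every alternative scaling and pseudocount and after removal of the length trend, 10 of the 37 members stayed higher at 5 µM (27%, beside 22% of 11836 protein-coding genes) and 6 lower (16.2%, beside 30.3%). At 2.5 µM 12 stayed higher (32.4%, beside 24.7% of 11809) and 6 lower (16.2%, beside 31%). Among the 7052 protein-coding genes averaging 5 FPKM or more, 27.1% stayed higher and 19.2% lower at 5 µM, where 9 (25%) and 6 (16.7%) of 36 members did, and at 2.5 µM 30.9% and 20.3%, where 11 (30.6%) and 6 (16.7%) of the members did. So the shares of members called in every setting were close to those of genes of that level. These are shares of the genes tested and not of the genes called, and no difference was tested.

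The members that stayed higher at 5 µM were CLK1, CLK3, CLK4, SRSF3, SRSF4, SRSF8, SRSF12, HNRNPL, HNRNPLL and HNRNPA1L2, and those that stayed lower were SRSF1, SRSF5, HNRNPA3, HNRNPH3, HNRNPM and HNRNPU. At 2.5 µM SRSF6 and HNRNPA0 joined the higher ones, and HNRNPUL2 stood in place of HNRNPA3 among the lower ones. No alternative dealt with fragments of overlapping genes. The other calls were lost in at least 1 alternative. At 5 µM these were SRSF6, SRSF7, SRSF9, HNRNPA0, HNRNPAB, HNRNPF, HNRNPH2 and HNRNPK among the higher genes and SRSF11, HNRNPH1, HNRNPUL1 and HNRNPUL2 among the lower. At 2.5 µM they were SRSF2, SRSF7, SRSF9, HNRNPC, HNRNPF and HNRNPK, and HNRNPA2B1, HNRNPH1 and HNRNPUL1.

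Other genes that act with these families give the setting. Their counts stand beside 36.5% higher and 45.1% lower over all genes tested at 5 µM and 36.4% and 43.4% at 2.5 µM, and beside 48.8%, 27.4%, 48% and 26.1% over genes averaging 5 FPKM or more. Of 12 kinases, phosphatases and other regulators of SR phosphorylation, 11 passed the filter, and 5 were higher (45.5%) and 2 lower (18.2%) at 5 µM (median 0.06), and 6 (54.5%) and 2 at 2.5 µM (median 0.42). After subtraction of the length trend these medians were 0.27 at 5 µM and 0.50 at 2.5 µM. SRPK1, the main cytoplasmic SR kinase, was at 18.7, 13.5 and 14.7 FPKM, lower at both doses (-0.47 and -0.34). Its 5 µM call was lost after centring on the median gene (-0.23) and after subtraction of the length trend (-0.18). PPP2CA, a catalytic subunit of protein phosphatase 2A, had the highest log2 change at 5 µM (40.4, 70.4 and 72.8 FPKM) and HIPK2, a nuclear kinase, the lowest (3.64, 1.24 and 0.737 FPKM).

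Of 26 SR-related proteins, which carry arginine-serine stretches without being classical SR proteins, 13 were higher (50%) and 7 lower (26.9%) at 5 µM (median 0.26), and 14 (53.8%) and 4 (15.4%) at 2.5 µM (median 0.27). Subtraction of the length trend gave medians of 0.47 at 5 µM and 0.32 at 2.5 µM. TRA2A was at 20.3, 30.6 and 35.7 FPKM and TRA2B, its paralog and a partner of SR proteins on exonic enhancers, at 21.9, 33.4 and 33.2. Both were higher in the JG231 libraries, with a change of 0.22 for TRA2B at 5 µM under the alternative that lowered it most. RSRC2 had the highest log2 change of this list at 5 µM (13.2, 34.6 and 32.8 FPKM) and SRRM2, a scaffold of nuclear speckles, the lowest (60.6, 39.3 and 23.7 FPKM).

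Core spliceosomal genes were mostly higher in the deposited values. Among 26 U1, U2 and Sm proteins 19 were higher (73.1%) and 1 lower (3.85%) at 5 µM (median 0.47), and of 25 that passed at 2.5 µM 15 were higher (60%) and 3 lower (12%, median 0.40). Among 24 U4/U6 and U5 proteins 16 were higher (66.7%) and 4 lower (16.7%) at 5 µM (median 0.44), and 14 (58.3%) and 2 (8.33%) at 2.5 µM (median 0.35). The median canonical length was 1552 bases for the first list and 2655.5 for the second, and after subtraction of the length trend the medians at 5 µM were 0.32 and 0.37, and at 2.5 µM 0.12 and 0.18. Without mitochondrial and small RNA genes in a common FPKM sum the 5 µM medians were 0.08 and 0.06, beside -0.53 for all genes. SF3B5, a small subunit of the branch-site complex, had the highest log2 change at 5 µM (92.3, 210.0 and 273 FPKM). SF3B3 was the one U1, U2 or Sm gene called lower at 5 µM (11.8, 7.84 and 8.82 FPKM, log2 change -0.42 at 5 µM and 0.15 after subtraction of the length trend).

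Other splicing repressors were also mixed. Of 25 that passed, 11 were higher (44%) and 9 lower (36%) at 5 µM (median -0.11), and 10 (40%) and 8 (32%) at 2.5 µM (median 0.01). PTBP1, also called HNRNPI, was at 90.1, 141 and 153 FPKM, and PTBP2, its neuronal paralog, at 4.37, 6.90 and 5.60. Both were higher at both doses in the deposited values, but the call of PTBP2 at 5 µM was lost with a common FPKM sum (0.22), with division by the fragment sum (0.20) and with a common FPKM sum without mitochondrial and small RNA genes (-0.02). TARDBP (26.0, 13.9 and 12.5 FPKM) and TAF15 (18.6, 11.3 and 6.40 FPKM) had the lowest log2 changes of the list at 5 µM, and KHDRBS3 (6.75, 16.5 and 17.7 FPKM) and PCBP1 (73.4, 160.1 and 181 FPKM) the highest.

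Of the neuronal and epithelial regulators 15 of 24 passed, with 2 higher (13.3%) and 8 lower (53.3%) at 5 µM (median -0.33, and -0.03 after subtraction of the length trend), but 5 higher (33.3%) and 4 lower (26.7%) at 2.5 µM (median -0.03). The ones higher at 5 µM were ESRP1 (41.1, 93.7 and 83.0 FPKM) and ESRP2 (3.83, 8.16 and 7.98 FPKM), regulators of epithelial exons. SRRM4, a driver of neuronal microexons in neuroendocrine prostate cancer, was listed at 0 in DMSO and rested on 13 and 18 fragments at 2.5 and 5 µM, too few for a fold. Of 17 nonsense-mediated decay factors, 6 were higher (35.3%) and 5 lower (29.4%) at 5 µM (median 0.12), and 7 and 7 (41.2% each) at 2.5 µM (median 0.06). SMG1, the kinase of that pathway, was at 6.07, 3.21 and 1.94 FPKM, and MAGOH, a core protein of the exon junction complex, at 23.6, 43.7 and 49.4. With a common FPKM sum without mitochondrial and small RNA genes, the medians at 5 µM were -0.31 for the regulators of SR phosphorylation, -0.11 for the SR-related proteins, -0.49 for the repressors, -0.74 for the neuronal and epithelial regulators and -0.26 for the decay factors.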

How the data were processed

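RNA from H660 cells treated with DMSO, 2.5 µM or 5 µM JG231 for 24 h was analysed, 1 library per condition. The authors deposited FPKM values per gene. According to the study's methods they used HISAT and StringTie within what is also called a TopHat-Cufflinks workflow, and the submitters' processing notes list HISAT2, featureCounts and GRCh38; versions, annotation release and use of strand are not given in the sources used here. GENCODE release 44 held the identifiers of 58207 of the 58735 genes. Multiplied by a gene length and a library divisor, the FPKM of 24134 of 24136 genes above 0 became whole fragments in all libraries (tolerance 0.0002, relaxed for high counts). Lengths from 20 to 60000 bases were searched, a value of 0 counted as whole, and 9634 of these genes had the exon length of GENCODE release 44. Of the 15611 genes above 0 in all 3 libraries, 15609 became whole. The divisors were 4.89%, 10.9% and 14.5% below the fragment sums for DMSO, 2.5 µM and 5 µM, so the deposited values include a factor between libraries whose method is not given. Log2 changes used a pseudocount of 0.1, and genes over 1 FPKM in either library. Counting intervals are 95% intervals of the log2 ratio from the fragments, without pseudocount. Alternatives were other pseudocounts, filters, scalings, centring, a threshold of 1, summing rows of the same symbol and, chosen after seeing the data, division by the fragment sum and removal of the length trend by lowess (fraction 0.3). Members and lists were chosen with earlier results of these data known. Every member over 1 FPKM could be named; of each other list, the 2 highest and 2 lowest at 5 µM could be named if their FPKM averaged 1 or more, with SRRM4, PTBP1, PTBP2, TRA2A, TRA2B and SRPK1. Python 3.11.15, pandas 2.3.3, numpy 2.4.6 and statsmodels 0.14.6 were used, and the steps were tested on simulated data.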

Additional observations from a re-analysis of the deposited data

How the results depend on the processing

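Pseudocounts of 1 or 0.01, a mean FPKM of at least 5, no filter, and summing rows of the same symbol left every family median within 0.25 of its value and every count of members within 1.5 times. Among the scalings, a common FPKM sum without mitochondrial and small RNA genes changed most in the comparisons with DMSO. At 5 µM it gave medians of 0.84 for the CLK kinases, 0.11 for the SR proteins and -0.41 for the hnRNPs, with 10 members higher and 16 lower, and at 2.5 µM 1.01, 0.12 and -0.19, with 12 higher and 14 lower. Over all genes it gave 3708 higher and 9706 lower at 5 µM, against 5755 and 7112, and 3976 higher and 9089 lower at 2.5 µM, against 5728 and 6830. Under it, of the changes past 0.25, the 5 µM changes of HNRNPA0 (-0.0441), HNRNPF (-0.00603), HNRNPH2 (-0.0567), HNRNPK (-0.0634) and PTBP2 (-0.0228) and the 2.5 µM change of HNRNPK (-0.0068) turned sign, and so did some smaller changes. A common FPKM sum and division by the fragment sum, the latter chosen after seeing the data, each gave 14 members higher and 13 lower at 5 µM, against 18 and 10, and centring on the median gene gave 21 and 7 (20 and 6 at 2.5 µM, against 18 and 9). Between the doses a common FPKM sum changed most among the scalings, with 2404 genes higher and 6422 lower, against 3801 and 4267. It gave 0 members higher and 14 lower, against 1 and 4. With the length trend removed these 4 lower calls between the doses were lost, and 2 members were higher and 2 lower. Removing the length trend, also chosen after seeing the data, gave a CLK median of 0.90 at 5 µM and, of the changes past 0.25, turned SRSF9 at 2.5 µM to -0.0498 and SF3B3 at 5 µM to 0.146, beside some smaller ones. With a threshold of 1, 4 members were higher and 2 lower at 5 µM, and 5 higher and 1 lower at 2.5 µM. Apart from the scalings' own construction, the cause of these differences was not tested. No paired analysis was possible because each condition has 1 library. Fragments per member ran from 103 to 36855, the widest counting interval at 5 µM reached 0.33 to either side on the log2 scale, and the variation between cultures is unknown.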
